A study of Homo sapiens with 6 samples.

Results

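The 40 genes described here encode the machinery of autophagy and mitophagy. They were listed by name, and all 40 were measured among the 19775 genes with a probe set annotated to a single symbol. Each gene is represented by the probe set with the highest mean over the 6 arrays. In macroautophagy a kinase complex around ULK1 starts a cup-shaped membrane, a lipid kinase complex around Beclin 1 marks it, and a ubiquitin-like conjugation system attaches LC3 and GABARAP proteins to it. Cargo receptors such as p62 tie damaged material to LC3, mitophagy receptors do the same for mitochondria, and the closed autophagosome fuses with the lysosome. The transcription factor TFEB controls many lysosomal and autophagy genes.

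The cells were SUM149, a human line of inflammatory breast cancer, grown in medium with serum, insulin and hydrocortisone. All were transfected with oligofectamine and an siRNA pool at 200 nmol/L. The control pool (siControl, 3 arrays) was a non-targeting pool of the siGENOME line, and the other pool (siTIG1, 3 arrays) was an ON-TARGET Plus pool against TIG1, now named RARRES1, so target and siRNA product cannot be told apart. The sources used here do not give the time after transfection. No label says whether replicates came from different cultures. The p-values therefore refer to the spread among these samples alone, and that spread may be technical. Values below are log2 signals of Affymetrix HG-U133 Plus arrays, and values listed for an array group are in the order of replicates 1, 2 and 3. Changes were tested with limma and Benjamini-Hochberg adjustment over all 19775 genes, and "rose" and "fell" are used for an adjusted p under 0.05. The measurement is of RNA in bulk, in which fewer cells of a type and less RNA per cell cannot be told apart, and it does not measure autophagic activity.

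The targeted gene did not pass the test. RARRES1 read 12.65, 12.61 and 13.74 on the control arrays and 12.69, 11.95 and 11.87 on the arrays labelled siTIG1, a difference of -0.83 ± 0.36 (SE, limma adjusted p = 0.25; exact 2-sided permutation p = 0.3, the lowest possible p in this design being 0.1). On this probe set, the brightest of 3, the array labelled siTIG1 replicate 1 lay within 0.1 of siControl replicates 1 and 2. On the other RARRES1 probe sets it read 10.72, against 11.04, 10.92 and 12.58 on the control arrays, and 11.72, against 11.90, 11.88 and 13.55, so there it was below every control. Their differences over all arrays were -1.28 and -1.24 and did not pass either (limma adjusted p = 0.19 and 0.22 over all probe sets). Over all probe sets siControl replicate 3 differed from the other controls, with a correlation of 0.985 to each, against 0.998 between siControl replicates 1 and 2 and 0.992 to 0.993 between these and the siTIG1 arrays. Each member is therefore reported below with and without siControl replicate 3, on the probe set used. For some members the report without that array is only an adjusted p, a range of these or a difference. Most pathway genes and markers, and some further probe sets, are given with all 6 arrays only. On the ACTB control probes the 3' reading minus the 5' reading, a measure that becomes larger when RNA is degraded, was 2.73, 2.62 and 3.21 on the control arrays and 2.14, 2.28 and 2.34 on the siTIG1 arrays, with siControl replicate 3 highest and every siTIG1 array below every control. The same measure for GAPDH was 0.48, 0.46 and 0.57 on the control arrays and 0.47, 0.46 and 0.46 on the siTIG1 arrays, where only siControl replicate 3 stood out. The part of RNA quality in the results was not tested. Luminal and general epithelial markers averaged 12.33 to 12.38 on the control and 12.59 to 12.63 on the siTIG1 arrays, and the 3 basal markers measured averaged 10.97 to 11.49 and 11.58 to 11.62, while the leukocyte markers averaged 7.38 to 7.65 and 7.55 to 7.58 and the endothelial markers 7.57 to 7.66 and 7.64 to 7.68. The files give no detection call, so these lower values are not shown to lie above background. Of the 8 luminal and general epithelial markers KRT19 alone passed with all arrays (1.00, limma adjusted p = 0.016). In this list 6 differences were positive, and EPCAM (-0.048) and KRT7 (-0.125) were negative. Of the 3 basal markers CDH3 alone passed with all arrays (0.49, limma adjusted p = 0.0072). Without siControl replicate 3, 5 of the 8 luminal and general epithelial markers rose and 0 fell. Of the basal markers 2 rose and KRT14 fell in that fit (-0.32, limma adjusted p = 0.0031). Of all genes 12.3% rose and 14.9% fell there. The fibroblast markers averaged 8.49 to 8.56 and 8.80 to 8.93, but 1 of the 8, DCN, passed the test (1.63, limma adjusted p = 0.0044). FAP was at 0.92 (limma adjusted p = 0.10) with all arrays and rose by 0.60 without siControl replicate 3 (limma adjusted p = 0.00017). The other 6 fibroblast markers lay between -0.08 and 0.09 with all arrays. CD14, a leukocyte marker, rose by 0.80 without siControl replicate 3 (limma adjusted p = 1.6e-05), and the other leukocyte markers passed in neither fit.

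With all 6 arrays 3 of the 40 members passed the test: LAMP2 and GABARAP rose and ATG4D fell. That is 7.5% of the members, against 7.32% of all genes tested (3.15% higher and 4.17% lower), so the share of members called was near the background. Among genes above the median level, where most members lie, 4.73% were higher and 7.56% lower. The median difference over the members was 0.04 on the log2 scale, against 0.01 over all genes. The arrays of the groups did not overlap for 17 of the 40 members, against 32.0% of all genes.

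The fit without siControl replicate 3 kept only 2 control arrays, which correlate at 0.998. Its p-values leave out the spread that siControl replicate 3 adds among the controls. In that fit 19 of the 40 members rose and 4 fell. That is 47.5% higher, against 12.3% of all genes, and 10.0% lower, against 14.9%. Most members are among the brighter genes, 36 of them above the median gene level, and among the genes above that level 17.2% were higher and 25.7% lower in the same fit. The median member difference was then 0.18, against 0.02 over all genes. The arrays differ in where the members sit: relative to the mean of siControl replicates 1 and 2, the median member was 0.16, 0.16 and 0.18 higher on the siTIG1 arrays and 0.29 higher on siControl replicate 3, whereas the median over all genes moved by at most 0.02 on any array. SiControl replicate 3 had the highest reading of the 6 arrays for 26 of the 40 members (65.0%), against 31.5% of all genes and 37.0% of genes above the median level, and the lowest for 3, against 28.4% of all genes. These values share siControl replicates 1 and 2 as controls.

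**Figure D1:**
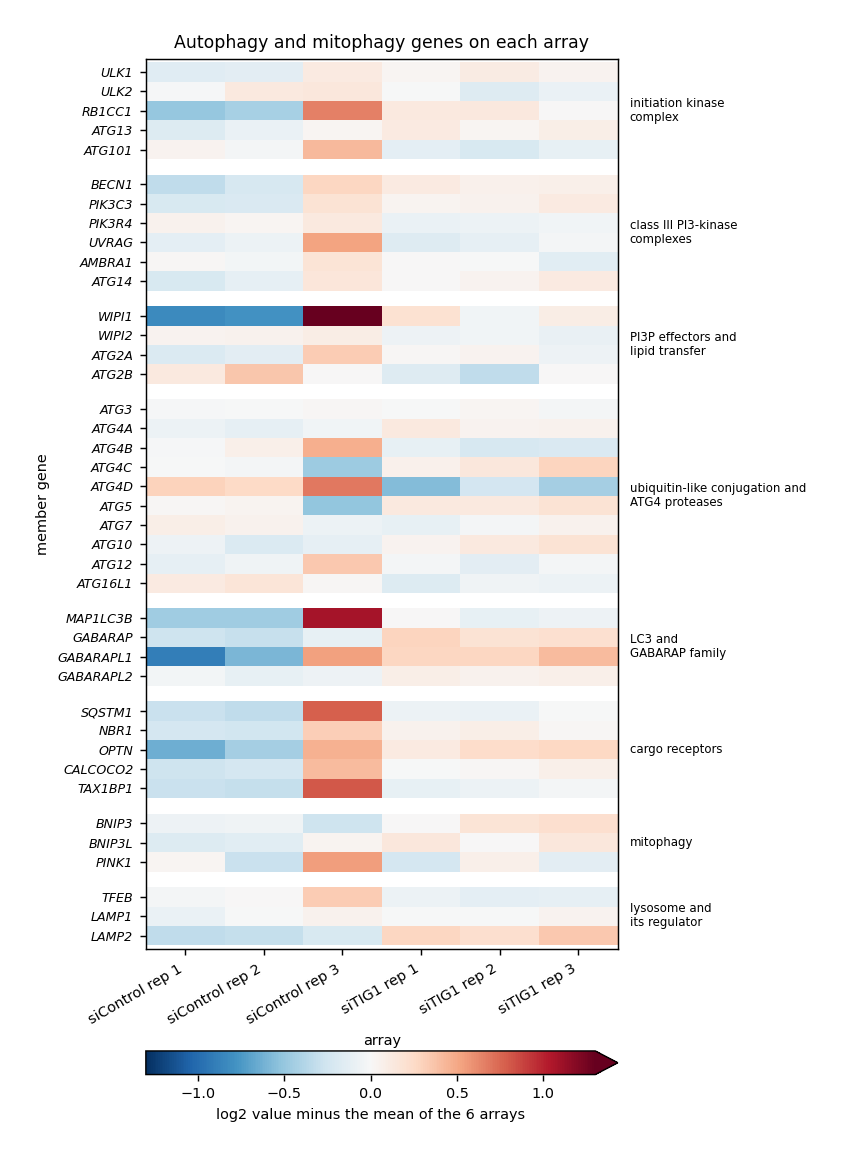
Each row is 1 of the 40 members, grouped by role, and each column 1 array; the colour gives the log2 value minus the mean of the 6 arrays, red for higher and blue for lower. SiControl replicates 1 and 2 are mostly blue and siControl replicate 3 is the reddest column for 26 members, among them WIPI1, MAP1LC3B, SQSTM1 and TAX1BP1, while LAMP2 and GABARAP are red on the 3 siTIG1 arrays only.

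Among the members the lowest adjusted p belonged to a lysosomal gene. LAMP2, a heavily glycosylated protein of the lysosomal membrane needed for autophagosome fusion and, in one splice form, for chaperone-mediated autophagy, read 11.83, 11.85 and 11.96 on the control arrays and 12.44, 12.38 and 12.51 on the siTIG1 arrays. All siTIG1 arrays lay above all controls, siControl replicate 3 included. LAMP2 rose 1.48-fold, or by 0.57 ± 0.06 on the log2 scale (SE, limma adjusted p = 0.0064), and by 0.61 without siControl replicate 3 (limma adjusted p = 6.4e-05). Of the 3 members called with all arrays, LAMP2 alone stayed under the threshold whichever array was omitted (highest limma adjusted p of 0.048). Of its 4 probe sets another passed as higher (0.54, limma adjusted p = 0.0096 over all probe sets), and the remaining probe sets were at 0.40 and -0.25 and did not pass (limma adjusted p = 0.11 and 0.22). Which splice form each probe set reads was not analysed here.

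LAMP1, the related membrane protein that is among the most abundant of the lysosome, averaged 14.93 ± 0.07 on the control and 14.95 ± 0.03 after siTIG1 (SD, n = 3 each). Its difference of 0.02 did not pass (limma adjusted p = 0.86), nor did that of 0.06 without siControl replicate 3. All 4 of its probe sets were positive, and a dim one, at 6.90 ± 0.02 on the control and 7.29 ± 0.15 after siTIG1 (SD, n = 3 each), passed as higher (0.39, limma adjusted p = 0.046 over all probe sets). TFEB averaged 8.83 ± 0.20 and 8.61 ± 0.02 (SD, n = 3 each), a difference of -0.21 (limma adjusted p = 0.29) that was -0.10 without that array. Every siTIG1 array read below every control array for TFEB, but its 2 probe sets had opposite signs.

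The LC3 and GABARAP proteins, which are coupled to phosphatidylethanolamine in the autophagosome membrane, split by array. GABARAP, of the subfamily that acts late in autophagosome maturation, read 12.60, 12.57 and 12.76 on the control arrays and 13.15, 13.05 and 13.07 on the siTIG1 arrays. The groups did not overlap, and the rise was 1.36-fold (log2 0.45 ± 0.07 SE, limma adjusted p = 0.017), or 0.51 without siControl replicate 3 (limma adjusted p = 0.00015). The call was lost when any array other than siControl replicate 3 was left out (limma adjusted p of 0.064 to 0.088).

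GABARAPL1, a paralog also known as an inducible early-response gene, read 8.28, 8.59 and 9.71 on the control arrays and 9.46, 9.46 and 9.59 on the siTIG1 arrays. The siTIG1 arrays were all above siControl replicates 1 and 2 and all below siControl replicate 3. Its difference of 0.64 ± 0.35 (SE) did not pass with all arrays (limma adjusted p = 0.35). Without siControl replicate 3 it was 1.07 ± 0.09 (SE, limma adjusted p = 3.6e-05), at 2.10-fold. Its levels on siControl replicates 1 and 2 are below the median gene level of 8.74, where the signal is not shown to lie above background, so the size of that difference is uncertain. Its other probe set gave 0.52 with all arrays and 0.87 without that array. Probe sets of GABARAPL1 can share signal with the near-identical copy GABARAPL3, whose own probe set was at 0.08 with all arrays.

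MAP1LC3B, the LC3 form most used as an autophagosome marker, read 11.76, 11.76 and 13.30 on the control arrays and 12.22, 12.11 and 12.14 on the siTIG1 arrays. SiControl replicate 3 lay 1.54 above the other controls and above every siTIG1 array. The difference was -0.11 with all arrays (limma adjusted p = 0.91) and 0.40 without siControl replicate 3 (limma adjusted p = 0.00054), so its sign rested on that array. The other MAP1LC3B probe set was at 0.31 and 0.69 in the same comparisons, and both can share signal with the near-identical gene MAP1LC3B2. GABARAPL2, also called GATE-16, averaged 12.13 ± 0.03 and 12.28 ± 0.01 (SD, n = 3 each), and its difference of 0.14 passed neither with all arrays (limma adjusted p = 0.14) nor without siControl replicate 3 (limma adjusted p = 0.062).

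The promoters of these 4 family members are shown because their transcripts moved differently across the arrays, and that of LAMP1 because it holds repeats of the motif bound by TFEB. They are the 250 bases before the annotated start, from RefSeq on GRCh38.p14. Capitals mark the motifs named after them.
GABARAP (chr17:7242450-7242699, minus strand): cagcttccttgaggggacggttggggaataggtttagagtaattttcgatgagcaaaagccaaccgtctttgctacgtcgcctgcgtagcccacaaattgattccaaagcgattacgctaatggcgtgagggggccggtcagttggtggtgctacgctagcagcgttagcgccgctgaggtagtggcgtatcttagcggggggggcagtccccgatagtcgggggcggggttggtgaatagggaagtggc
GABARAPL1 (chr12:10212627-10212876, plus strand): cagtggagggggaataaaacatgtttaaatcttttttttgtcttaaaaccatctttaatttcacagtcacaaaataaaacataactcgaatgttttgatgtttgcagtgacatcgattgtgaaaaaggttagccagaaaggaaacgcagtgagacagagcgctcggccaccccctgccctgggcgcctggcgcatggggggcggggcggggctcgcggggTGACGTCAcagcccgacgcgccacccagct
GABARAPL2 (chr16:75566129-75566378, plus strand): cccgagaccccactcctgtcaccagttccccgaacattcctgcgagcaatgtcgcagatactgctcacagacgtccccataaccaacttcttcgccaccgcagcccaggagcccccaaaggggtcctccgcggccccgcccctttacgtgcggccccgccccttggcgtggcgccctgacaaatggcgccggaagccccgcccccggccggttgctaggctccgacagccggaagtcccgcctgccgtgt
MAP1LC3B (chr16:87392086-87392335, plus strand): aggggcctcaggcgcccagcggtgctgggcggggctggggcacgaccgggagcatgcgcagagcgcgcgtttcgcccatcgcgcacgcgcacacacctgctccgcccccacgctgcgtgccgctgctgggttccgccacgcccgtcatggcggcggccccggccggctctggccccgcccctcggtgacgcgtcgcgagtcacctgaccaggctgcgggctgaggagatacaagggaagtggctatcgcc
LAMP1 (chr13:113296989-113297238, plus strand): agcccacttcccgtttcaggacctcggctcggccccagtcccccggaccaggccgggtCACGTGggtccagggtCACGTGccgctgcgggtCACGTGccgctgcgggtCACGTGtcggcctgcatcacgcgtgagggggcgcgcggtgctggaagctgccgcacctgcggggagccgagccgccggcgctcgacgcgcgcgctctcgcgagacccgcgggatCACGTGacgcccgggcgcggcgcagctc

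Short motifs were searched on both strands of the 300 bases from 250 before to 50 after the start, in the 34 members with an entry and in all 27305 promoters of that length. LAMP2, ATG4D, BNIP3L, PINK1, UVRAG and RB1CC1 had no entry and were not searched. Of the members called with all arrays, only GABARAP was searched. CACGTG, the E-box core of the element bound by TFEB and TFE3, lay in 4 of the 34 members (11.8%), against 7.43% of all promoters. LAMP1 held 6 matches, 5 of them within the bases printed, ATG3 held 2, and ATG14 and BNIP3 held 1 each. Of these 4 genes only ATG14 passed the test in either fit. TGACGTC, the cyclic AMP response core, lay in 1 member, GABARAPL1, against 3.63% of all promoters, as 2 matches on opposite strands that overlap. TGTTTAC, the forkhead core, lay in 1 member, CALCOCO2 (3.41% of all promoters), and TGACTCA, the AP-1 site, in 0 of 34 members (4.92% of all promoters). These are matches of letters and not measured binding. The promoters of the members were richer in G and C than all promoters (median 62.2% against 58.0% of the 250 bases before the start). The shares were not adjusted for that.

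The conjugation system loads LC3 and GABARAP onto the membrane, and its 10 measured genes went in both directions. ATG4D, a cysteine protease that processes LC3 and GABARAP proteins and removes them from the membrane, read 8.59, 8.55 and 8.99 on the control arrays and 7.73, 8.06 and 7.85 on the siTIG1 arrays. The groups did not overlap. ATG4D fell 1.77-fold, by 0.83 ± 0.14 (SE, limma adjusted p = 0.023), and by 0.69 without siControl replicate 3 (limma adjusted p = 0.00036). Its call was lost when any other single array was left out (limma adjusted p of 0.055 to 0.11). The group means of ATG4D were below the median gene level, as were those of ULK1 and ATG10 and the siTIG1 means of TFEB and ULK2.

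The other ATG4 proteases did not pass with all arrays. ATG4B, the most active of them on LC3, averaged 11.20 ± 0.26 on the control arrays and 10.85 ± 0.06 after siTIG1 (SD, n = 3 each). Its difference of -0.35 did not pass (limma adjusted p = 0.18), and its 3 probe sets shared that sign. ATG4A averaged 9.05 ± 0.04 and 9.21 ± 0.05 (SD, n = 3 each). ATG4C averaged 9.15 ± 0.26 and 9.48 ± 0.11 (SD, n = 3 each). Without siControl replicate 3, ATG4B fell by 0.20 (limma adjusted p = 0.028), ATG4A rose by 0.17 (limma adjusted p = 0.040) and ATG4C, at 0.18, did not pass (limma adjusted p = 0.081).

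ATG16L1, which places the conjugation enzymes on the membrane, averaged 9.68 ± 0.08 on the control and 9.48 ± 0.06 after siTIG1 (SD, n = 3 each), and fell only without siControl replicate 3, by 0.24 (limma adjusted p = 0.011, against 0.13 with all arrays). ATG10, the E2-like enzyme for ATG12, averaged 7.94 ± 0.06 and 8.18 ± 0.07 (SD, n = 3 each), and rose by 0.25 in that fit (limma adjusted p = 0.017, against 0.074 with all arrays). ATG5 and ATG12 form the conjugate that acts with ATG16L1. ATG5 averaged 10.72 ± 0.31 and 11.02 ± 0.04, and ATG12 averaged 11.23 ± 0.25 and 11.10 ± 0.06 (SD, n = 3 each). ATG3, the E2-like enzyme for LC3, averaged 12.14 ± 0.02 and 12.14 ± 0.03, and ATG7, the shared E1-like enzyme, 10.22 ± 0.09 and 10.18 ± 0.08 (SD, n = 3 each). None of these 4 passed in either fit (limma adjusted p of 0.11 to 0.99). In all, 1 of the 10 genes passed with all arrays, and 2 rose and 3 fell without siControl replicate 3.

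**Figure D2:**
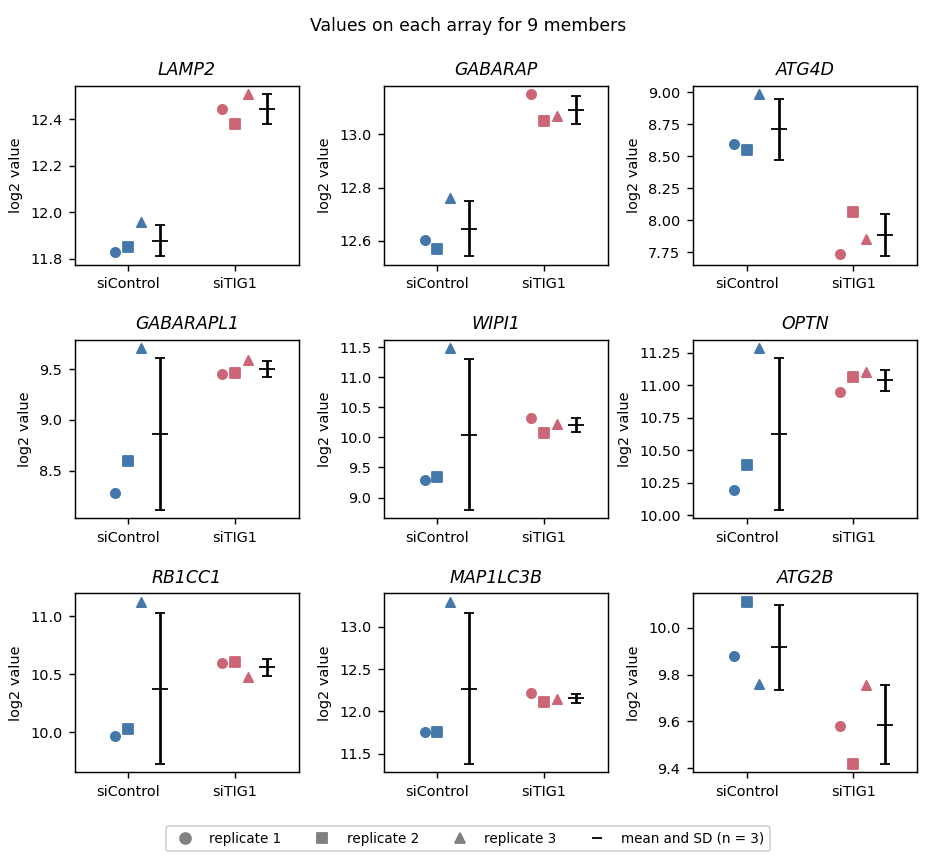
Log2 values on each array for the 9 members that passed without siControl replicate 3 with a difference of at least 0.4; symbols are replicates, and the horizontal marks with bars are means and SD (n = 3). LAMP2, GABARAP and ATG4D separate the groups, whereas siControl replicate 3 (triangle) lies above the siTIG1 arrays for GABARAPL1, WIPI1, OPTN, RB1CC1 and MAP1LC3B.

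Cargo receptors bring ubiquitinated proteins, mitochondria and bacteria to LC3. None of the 5 passed with all arrays in limma (0 at an unadjusted p under 0.05), and all 5 rose without siControl replicate 3, the array with the highest reading of every one of them. OPTN, optineurin, a receptor for damaged mitochondria and bacteria, read 10.20, 10.39 and 11.29 on the control arrays and 10.95, 11.07 and 11.10 on the siTIG1 arrays. The siTIG1 arrays lay above siControl replicates 1 and 2 and below siControl replicate 3. Its difference was 0.42 ± 0.28 (SE, limma adjusted p = 0.45) with all arrays and 0.75 ± 0.07 (SE, limma adjusted p = 8.0e-05) without that array, with the same sign on both of its probe sets.

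SQSTM1, the receptor p62, which is itself degraded by autophagy, averaged 12.64 ± 0.63 on the control and 12.54 ± 0.04 after siTIG1 (SD, n = 3 each). SiControl replicate 3 read 1.09 above the other controls, and the difference went from -0.11 to 0.26 without it (limma adjusted p = 0.0055). The 5 SQSTM1 probe sets differed in sign without that array, the others being at 0.24, 0.075, -0.05 and -0.15. TAX1BP1, which clears protein aggregates, averaged 11.84 ± 0.64 and 11.71 ± 0.04 (SD, n = 3 each), and its difference went from -0.14 to 0.23 (limma adjusted p = 0.0091). NBR1, which works together with p62, averaged 12.18 ± 0.32 and 12.29 ± 0.03 (SD, n = 3 each), and CALCOCO2, the receptor NDP52, 11.45 ± 0.38 and 11.51 ± 0.04 (SD, n = 3 each). Without siControl replicate 3 they rose by 0.29 (limma adjusted p = 0.0024) and 0.28 (limma adjusted p = 0.0037). Of the 4 NBR1 probe sets 2 had the opposite sign with all arrays.

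The PI3P effectors and lipid transfer proteins recognise the lipid mark and feed the growing membrane. WIPI1, a PI3P-binding protein often used as a transcript marker of autophagy induction, read 9.30, 9.34 and 11.49 on the control arrays and 10.32, 10.08 and 10.22 on the siTIG1 arrays. SiControl replicate 3 lay 2.17 above the other controls, the widest gap among the members, and the siTIG1 arrays lay between. Its difference was 0.16 ± 0.58 (SE, limma adjusted p = 0.91) with all arrays and 0.89 ± 0.07 (SE, limma adjusted p = 3.1e-05) without siControl replicate 3, at 1.85-fold. Its second probe set gave 0.10 and 0.76. WIPI2, the paralog that recruits ATG16L1, averaged 11.74 ± 0.03 and 11.61 ± 0.02 (SD, n = 3 each) and passed in neither fit (limma adjusted p = 0.16 and 0.11).

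ATG2A and ATG2B move lipids into the growing membrane. ATG2B read 9.88, 10.11 and 9.76 on the control arrays and 9.58, 9.42 and 9.76 on the siTIG1 arrays. The replicate 3 arrays of the groups read nearly the same. It fell only without siControl replicate 3, by 0.41 (limma adjusted p = 0.014), against a difference of -0.33 with all arrays (limma adjusted p = 0.18), and 3 of its 4 probe sets shared that sign. ATG2A averaged 10.34 ± 0.29 and 10.34 ± 0.06 (SD, n = 3 each), and passed in neither fit (limma adjusted p = 0.99 and 0.062).

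The initiation kinase complex receives signals from the nutrient sensors mTORC1 and AMPK. None of its 5 genes passed with all arrays in limma (2 at an unadjusted p under 0.05), and 3 rose without siControl replicate 3. RB1CC1, the scaffold FIP200, read 9.97, 10.03 and 11.13 on the control arrays and 10.60, 10.61 and 10.48 on the siTIG1 arrays. SiControl replicate 3 was again above every other array. The difference was 0.18 ± 0.30 (SE, limma adjusted p = 0.78) with all arrays and 0.56 ± 0.06 (SE, limma adjusted p = 0.00014) without it, but its second probe set was at 0.17 in that comparison and at -0.15 with all arrays.

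ULK1, the kinase that starts the process, averaged 8.14 ± 0.15 on the control and 8.26 ± 0.04 after siTIG1 (SD, n = 3 each), and rose by 0.21 without siControl replicate 3 (limma adjusted p = 0.014). ATG13, its regulatory partner, averaged 11.13 ± 0.10 and 11.28 ± 0.05 (SD, n = 3 each), and rose by 0.21 in that fit (limma adjusted p = 0.020). ATG13 was represented by a probe set that can bind several transcripts, and 2 of its 3 probe sets shared the sign of the rise. ULK2, the paralog of ULK1, averaged 8.84 ± 0.09 and 8.67 ± 0.08, and ATG101, which stabilises ATG13, 12.08 ± 0.24 and 11.78 ± 0.06 (SD, n = 3 each). Neither passed in either fit (limma adjusted p of 0.062 to 0.23).

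The class III PI3-kinase complexes make the lipid PI3P on the forming membrane and on endosomes. None of their 6 genes passed with all arrays in limma (1 at an unadjusted p under 0.05), and siControl replicate 3 had the highest reading of all 6. BECN1, Beclin 1, averaged 11.05 ± 0.32 on the control and 11.22 ± 0.03 after siTIG1 (SD, n = 3 each) and rose by 0.36 without that array (limma adjusted p = 0.0012). PIK3C3, the catalytic subunit VPS34, averaged 12.18 ± 0.22 and 12.33 ± 0.04 (SD, n = 3 each) and rose by 0.27 (limma adjusted p = 0.0039), although only 4 of its 7 probe sets shared that sign with all arrays. ATG14, the subunit that directs the complex to autophagy, averaged 9.59 ± 0.19 and 9.70 ± 0.05 (SD, n = 3 each) and rose by 0.22 (limma adjusted p = 0.020).

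UVRAG, the subunit that takes the place of ATG14 in the endosomal complex, averaged 10.17 ± 0.36 and 9.96 ± 0.07 (SD, n = 3 each). The regulatory subunit PIK3R4, also called VPS15, averaged 10.34 ± 0.05 and 10.21 ± 0.02 (SD, n = 3 each). The Beclin 1 regulator AMBRA1 averaged 10.75 ± 0.11 and 10.65 ± 0.09 (SD, n = 3 each). None of these 3 passed in either fit, and without siControl replicate 3 their differences were 0.00, -0.11 and -0.04 (limma adjusted p = 0.98, 0.16 and 0.71).

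None of the 3 mitophagy genes passed with all arrays in limma on the probe set used (2 at an unadjusted p under 0.05), but the second, dimmer probe set of BNIP3 and of BNIP3L did. BNIP3, a mitochondrial receptor induced by hypoxia, averaged 12.54 ± 0.12 on the control and 12.81 ± 0.12 after siTIG1 (SD, n = 3 each). Its difference was 0.27 (limma adjusted p = 0.14) and 0.20 without siControl replicate 3 (limma adjusted p = 0.064). Its groups did not overlap. Its second probe set read 9.12, 8.99 and 8.71 on the control arrays and 9.46, 9.52 and 9.56 on the siTIG1 arrays, a rise of 0.57 (limma adjusted p = 0.034 over all probe sets). BNIP3L, the receptor NIX, averaged 11.38 ± 0.12 and 11.57 ± 0.09 (SD, n = 3 each) and rose by 0.26 without siControl replicate 3 (limma adjusted p = 0.011). Its second probe set read 10.66, 10.64 and 10.94 on the control arrays and 11.34, 11.24 and 11.28 on the siTIG1 arrays, a rise of 0.54 (limma adjusted p = 0.024 over all probe sets). Both second probe sets separated the groups. PINK1, the kinase that labels depolarised mitochondria, averaged 11.65 ± 0.42 and 11.45 ± 0.15 (SD, n = 3 each), and its difference of -0.19 was 0.03 without siControl replicate 3.

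**Figure D3:**
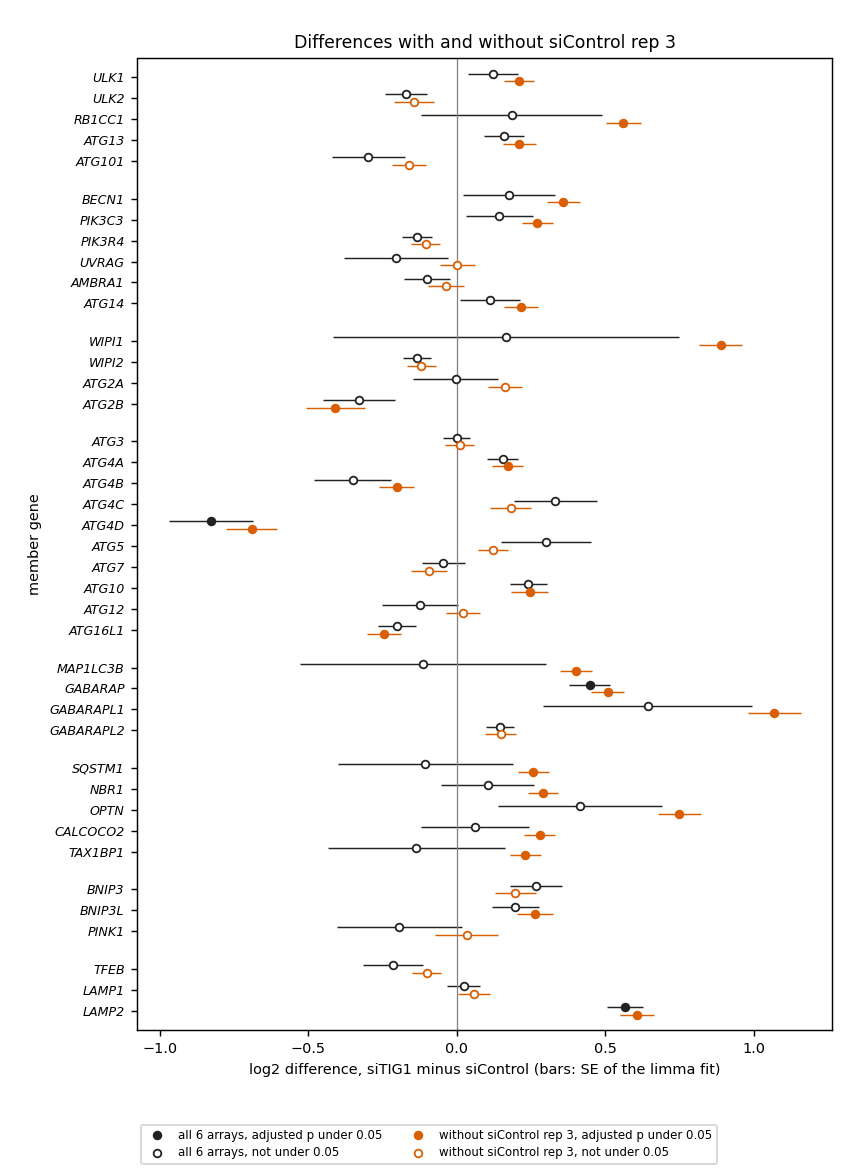
Log2 differences, siTIG1 minus siControl, for the 40 members with all 6 arrays (black) and without siControl replicate 3 (orange); bars are the SE of the limma fit and filled points have an adjusted p under 0.05. LAMP2, GABARAP and ATG4D are filled in both fits, and 20 further members are filled in the second fit only.

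The wider autophagy and lysosome pathway was read from 7 lists of other genes, of which 132 of 140 were measured. With all arrays 12 rose and 4 fell, 12.1% called, against 7.32% of all genes and 12.3% of genes above the median level. The lysosomal enzymes and membrane proteins had the most calls, with 6 of 23 genes higher and 1 lower. LIPA, lysosomal acid lipase, rose by 0.67 ± 0.07 (SE, limma adjusted p = 0.0061), from 11.79 ± 0.04 to 12.46 ± 0.12 (SD, n = 3 each), but its 2 probe sets had opposite signs. CTSA, cathepsin A, which protects other lysosomal enzymes, rose by 0.62 ± 0.09 (SE, limma adjusted p = 0.016). CTSD, the aspartic protease cathepsin D, fell by 0.51 ± 0.07 (SE, limma adjusted p = 0.015).

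The other lysosomal genes that rose were the peptidase TPP1 (0.50), the lysosomal chaperone precursor progranulin (GRN, 0.43), acid ceramidase (ASAH1, 0.41) and cathepsin B (CTSB, 0.28). Of the 5 ASAH1 probe sets 2 shared the sign of its rise. Among the 16 measured subunits and partners of the V-ATPase, the pump that acidifies the lysosome, ATP6V1D (0.44, limma adjusted p = 0.038) and ATP6V0E1 (0.40, limma adjusted p = 0.0086) rose and 14 did not pass. Of 12 fusion genes VAMP8, a SNARE of the autophagosome and lysosome fusion step, rose by 0.98 ± 0.18 (SE, limma adjusted p = 0.030), and its partner SNAP29 by 0.31 (limma adjusted p = 0.036). VAMP8 read 11.90, 11.94 and 11.28 on the control arrays and 12.81, 12.63 and 12.63 on the siTIG1 arrays, with siControl replicate 3 lowest. SNAP29 had the opposite sign on 2 of its 3 probe sets.

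Among 19 further core genes SH3GLB1, a membrane-curving partner of UVRAG, rose by 0.53 ± 0.05 (SE, limma adjusted p = 0.0042) and TMEM41B, an ER lipid scramblase, fell by 0.25 (limma adjusted p = 0.032). Among 20 further selective autophagy genes RTN3, an ER-phagy receptor, fell by 0.51 ± 0.07 (SE, limma adjusted p = 0.011). Among 31 nutrient and energy sensing genes the AMPK subunit PRKAG2 rose by 0.29 (limma adjusted p = 0.036) and the mTOR complex subunit MLST8 fell by 0.31 (limma adjusted p = 0.021). With any 1 array left out, SH3GLB1 and LIPA kept their calls. Each of the other 14 lost its call for at least 1 choice of array.

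None of the 11 transcription factors of autophagy and lysosome genes passed with all arrays in limma (2 at an unadjusted p under 0.05), and 4 rose and 3 fell without siControl replicate 3. FOXO3 read 1.04 and FOXO1 1.24 above the other controls on siControl replicate 3, and without that array they rose by 0.43 (limma adjusted p = 0.00021) and 0.41 (limma adjusted p = 0.0078). Of the 4 FOXO3 probe sets 1, the one used, had a positive difference with all arrays. DDIT3, the stress factor CHOP, read 0.94 above the other controls on siControl replicate 3, and ATF4, the activator of the integrated stress response, 0.28 above. The part of these factors in the members' high values on that array was not tested. TFE3, the relative of TFEB, fell by 0.30 without siControl replicate 3 (limma adjusted p = 0.0046). In the same fit ATF4 fell by 0.28 (limma adjusted p = 0.0054) and E2F1 by 0.53 (limma adjusted p = 0.0001). On siControl replicate 3, E2F1 read 1.05 below the other controls. Over the 7 lists 44 of 132 genes rose and 21 fell in that fit, 49.2% called, against 27.2% of all genes and 42.9% of those above the median level.

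**Figure D4:**
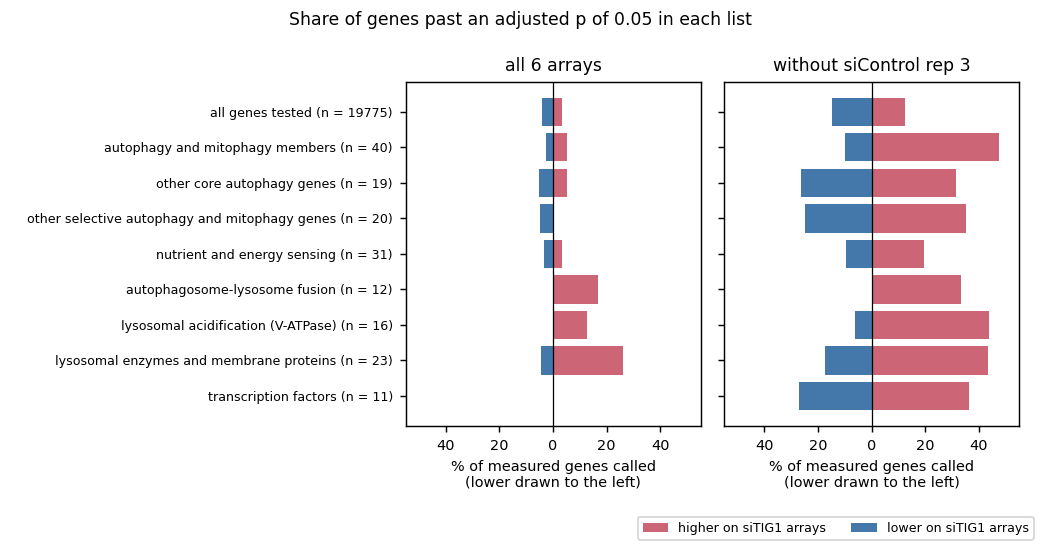
Bars give the percent of measured genes in each list past an adjusted p of 0.05, higher to the right and lower to the left, with all 6 arrays on the left panel and without siControl replicate 3 on the right. With all arrays the 40 members lie near the bar of all genes tested, and without that array 47.5% of them are higher, against 12.3% of all genes.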

How the data were processed

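The authors deposited normalized log2 values, 1 for each probe set on each array. The submitters' processing notes list MAS5 and RMA without saying which made the values. The log base was taken as 2 from the range of the values, 4.28 to 15.59. Array medians of 7.87 to 7.90 and sorted values within 0.093 of each other show that the deposited log2 values were already normalized between arrays, so they were used as given. A change in the total RNA of a cell is hidden by such scaling.

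Of 54675 probe sets, 41091 carried 1 symbol, 1801 several and 11721 none, and 62 controls were left out. Symbols were updated by gene number against RefSeq GRCh38.p14, which held 19735 of 19775 genes. For each gene the probe set with the highest mean was used. The comparison used limma 3.58.1 (lmFit and eBayes, 2-sided, no block; R 4.3.3), with adjustment over 19775 genes. Simulated data held 19775 genes with 200 changed. There the test recovered 56.7% of changes of 0.5, 89.6% of changes of 1 and 97.0% of changes of 2 (log2), with 7 false calls. In the real data siControl replicate 3 stood apart, with a correlation of 0.985 to the other controls, against 0.998 between these. The simulation gave each gene the same spread on every array, taken from the real spread within groups, so no simulated array stood apart. Its rates and false calls therefore cannot be carried over to the real comparison. Array number limits the precision.

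All members are named. Values on each array are given for members called with all arrays, or called without siControl replicate 3, with a difference of at least 0.4, and up to 3 called genes are named per pathway list. Genes beyond this (RARRES1 apart) complete a count or were chosen after their values were seen, as were SQSTM1 gaps, FOXO1, FOXO3, DDIT3, ATF4, E2F1 and TFE3. The same holds for the markers DCN, FAP, CD14, KRT19, EPCAM, KRT7, CDH3 and KRT14. Members and lists were chosen with earlier results of these data known. Whether replicate numbers pair the samples is not known. Correlations of same-numbered deviations from the group means were -0.08, 0.02 and -0.04. They cannot decide it, because siControl replicate 3 dominates the deviations of the control arrays. The alternatives tried were leaving out each array, a replicate block, other choices of probe set, array weights, a trended robust variance, median centring, quantile normalization and leaving out dim genes.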

Additional observations from a re-analysis of the deposited data

How the results depend on the processing

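Across the 15 alternatives, 25 of the 40 members kept the sign of their difference and 15 did not. The count of all genes called, 1448 with all arrays, ranged from 222 to 5375 with 1 array left out, members called higher from 1 to 19, members called lower from 0 to 4, pathway genes called from 2 to 65, the median member difference from -0.016 to 0.176 and that of RARRES1 from -1.09 to -0.46. The counts of 5375, 19, 4 and 65 are those without siControl replicate 3. Without any other array LAMP2 was the member called higher, and 0 members were called lower by limma (2 to 5 at an unadjusted p under 0.05). With the replicate block 238 genes passed limma, although whether the numbers pair the samples is not known. Of the members 1 was called higher (LAMP2) and 0 lower (4 at an unadjusted p under 0.05 in limma). Of the pathway genes 0 passed (43 at an unadjusted p under 0.05 in limma). With array weights, which gave siControl replicate 3 a weight of 0.10 against 1.04 to 2.18 for the others, 5134 genes, 17 members higher, 4 lower and 61 pathway genes passed, with a median of 0.18. The filter on dim genes removed ATG4D, so 0 members were lower (4 at an unadjusted p under 0.05 in limma). An alternative chosen after seeing the data left out siControl replicate 3 and siTIG1 replicate 1 together: 5453 genes, 20 members higher, 4 lower and 63 pathway genes passed, and the median was 0.17. RARRES1 fell by 0.72 there (limma adjusted p = 3.9e-05) and passed in no other alternative. The arrays left out held the highest RARRES1 readings of their groups (13.74 and 12.69). That RARRES1 result therefore follows from a choice made on its own values and is no independent check.

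Signs changed as follows, and the cause was not tested beyond the array left out. With 1 array left out the ranges were -0.018 to 0.56 for RB1CC1, -0.32 to 0.002 for UVRAG, -0.21 to 0.89 for WIPI1, -0.10 to 0.16 for ATG2A, -0.016 to 0.009 for ATG3, -0.21 to 0.02 for ATG12, -0.37 to 0.40 for MAP1LC3B, -0.30 to 0.26 for SQSTM1, -0.062 to 0.28 for CALCOCO2, -0.33 to 0.23 for TAX1BP1, -0.38 to 0.033 for PINK1 and -0.014 to 0.058 for LAMP1. Averaging the probe sets of each gene gave -0.15 for PIK3C3, 0.018 for PIK3R4, 0.053 for ATG7, 0.003 for ATG12 and 0.10 for MAP1LC3B. Quantile normalization gave 0.047 for ATG2A, 0.015 for ATG3 and 0.005 for ATG7. Array weights gave 0.15 for ATG2A, 0.013 for ATG3, 0.34 for MAP1LC3B, 0.22 for SQSTM1, 0.20 for TAX1BP1 and 0.034 for PINK1. With siControl replicate 3 and siTIG1 replicate 1 left out the values were 0.032 for UVRAG, 0.15 for ATG2A, 0.013 for ATG3, 0.003 for ATG12, 0.37 for MAP1LC3B, 0.27 for SQSTM1, 0.25 for TAX1BP1 and 0.10 for PINK1. None of these members was called with all arrays. LAMP2, GABARAP and ATG4D kept their signs under every alternative that tested them.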
